A study of Saccharomyces cerevisiae with 3 samples.

Results

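The genes described here are 50 genes of the actin cytoskeleton and of endocytosis in budding yeast. They were chosen by name for the role of their products, with earlier results of these data known. All 50 were found by their symbol among the 4069 named genes on the array, each with 7 spots. Gene expression was compared between BY4741 cells exposed to NaCl (0.4 M, 15 minutes, RNA labelled with Cy3) and untreated BY4741 cells (RNA labelled with Cy5). BY4741 is a haploid MATa laboratory strain that lacks HIS3, LEU2, MET17 and URA3 in whole or in part, and both conditions carry these deletions. The 3 cultures were grown independently in the rich medium YPD to mid-log phase, and both RNAs of a culture shared 1 array, so the value of a gene is the log2 ratio of NaCl over untreated on that array and n = 3 throughout. Every array had the dyes the same way round, and an effect of the dye on a gene cannot be told apart from an effect of NaCl.

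Actin works in yeast as a pair of networks. Cortical patches are short branched filaments nucleated by the Arp2/3 complex, and they drive the inward folding of the plasma membrane at sites of clathrin-mediated endocytosis. Cables are bundles of long filaments nucleated by formins at the bud and the bud neck, stabilised by tropomyosin, and used by type V myosins as tracks that carry vesicles, organelles and messenger RNA into the bud. Osmotic shock is known to disturb the polarised arrangement of both networks for a time, which is background and was not measured on these arrays.

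The deposited values state neither their direction nor their log base. STL1, CTT1 and ALD3, which the study followed as NaCl-induced genes on Northern blots, had values between 6.54 and 8.37, and all 385 named genes of a list that the study had selected by a minimum fold were above 0, with a lowest mean of 0.72. That minimum is 0.81 as a log2, 0.56 as a natural log and 0.24 as a log10. Of the 385 means, 9 lay below the log2 limit and none below that of the natural log, so this list gives the direction, NaCl over untreated, but does not settle the base. The values were read as log2, the scale on which limma, the tool the submitters name, writes ratios, and every fold below rests on that reading. The genes deleted in BY4741 lay between -0.21 and 0.11 on all arrays. The median over all named genes was between -0.02 and 0.00 on each array, and values are relative to this middle. Replicates 2 and 3 were the most alike: across the 50 actin and endocytosis genes Pearson's r was 0.90 for this pair, 0.76 for replicate 1 with 2 and 0.56 for replicate 1 with 3, against 0.97, 0.93 and 0.89 across all named genes. Genes are not independent replicates, and the 50 genes cover a narrow range of ratios, so these are descriptions of how far replicate 1 stood apart.

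Of the 50 genes, 17 rose upon osmostress and 8 fell at an adjusted p under 0.05 (limma, Benjamini-Hochberg adjustment over 4069 genes), and 25 did not pass the test. Both directions together are 25 of 50 genes, against 54.8% of all named genes. The share that rose was 34.0%, against 26.9% of all named genes, and the share that fell was 16.0%, against 27.9% of all named genes. The median log2 ratio of the 50 genes was 0.22, 0.10 and 0.07 on the 3 arrays, a mean of 0.13 ± 0.08 (SD, n = 3), against -0.01 ± 0.01 for all named genes. The changes were modest: the highest mean was 2.83-fold for YAP1802 and the lowest was a log2 ratio of -0.78 for MYO4. Of the 50 genes, 6 were over 1.5-fold higher in NaCl (12.0%, against 14.1% of all named genes) and 2 were over 1.5-fold lower (4.0%, against 12.3% of all named genes). Of the 17 that rose, 7 encode actin or regulators of its filaments and 5 encode proteins of the endocytic coat, and of the 8 that fell, 5 belong to formins, the polarisome and cables. A difference between roles was not tested. Without replicate 1, 20 of the 50 genes rose and 10 fell, and without replicate 2 these counts were 12 and 4. Over all named genes, 31.5% rose and 32.9% fell without replicate 1, and 19.1% rose and 17.1% fell without replicate 2.

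**Figure D1:**
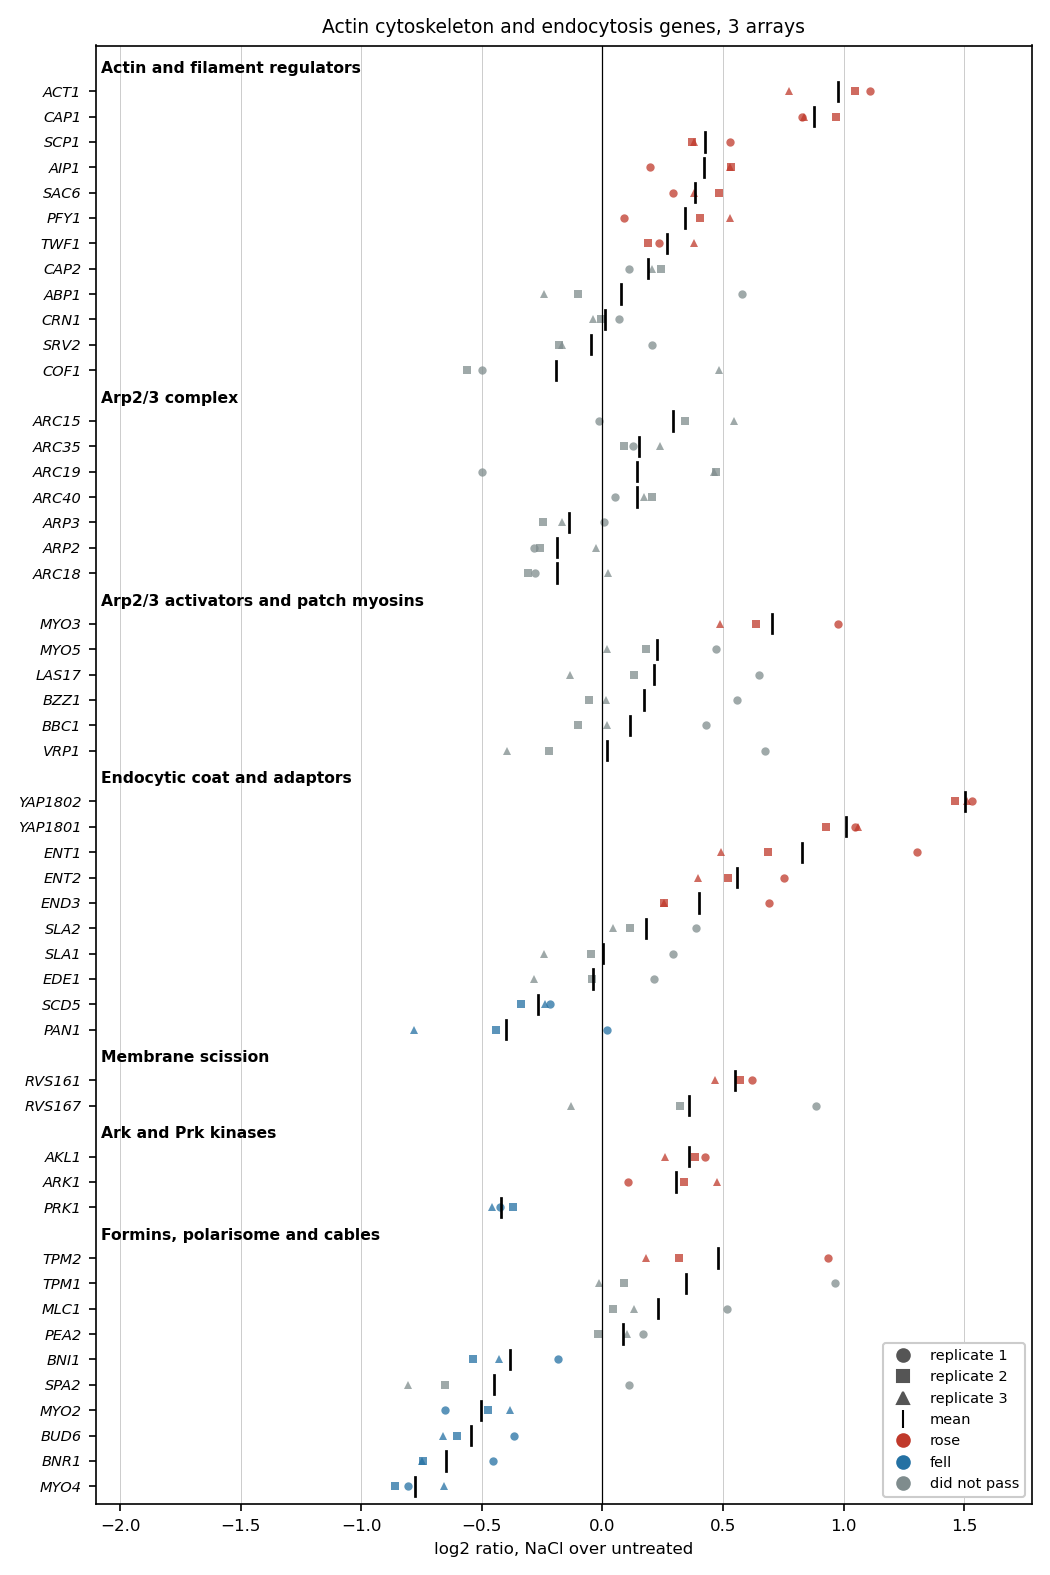
Log2 ratio of NaCl over untreated (horizontal axis) for each of the 50 genes, grouped by role, with 1 symbol per replicate, a bar at the mean of 3 arrays and colour for the call of limma. YAP1802 is highest at a mean of 2.83-fold and MYO4 lowest at -0.78, and the Arp2/3 complex has no gene past the threshold.

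Of the 12 genes for actin and the proteins that act on its monomers and filaments, 7 rose (58.3%, against 26.9% of all named genes), and 3 did without replicate 2. ACT1, the single gene for conventional actin in this organism, had log2 ratios of 1.11, 1.05 and 0.77 on replicates 1 to 3. It rose 1.97-fold (0.98 ± 0.18, SD, n = 3, adjusted p = 0.00014), higher than 93.1% of all named genes. CAP1 encodes a subunit of the capping protein, which blocks the growing end of filaments, and stood at 0.83, 0.97 and 0.83, with a 1.84-fold increase (adjusted p = 0.000136). CAP2 encodes the other subunit of that heterodimer and had 0.11, 0.24 and 0.21, with a mean of 0.19 ± 0.07 that did not pass (adjusted p = 0.119). CAP1 thus lay above CAP2 on every array. The call for CAP2 depended on replicate 1, without which the gene passed at a log2 ratio of 0.23 (adjusted p = 0.0414).

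Smaller increases were measured for genes of filament bundling and turnover. SCP1, the calponin-like bundling protein gene, rose by 0.43 ± 0.09 on the log2 scale with values of 0.53, 0.37 and 0.38 (1.34-fold, adjusted p = 0.00573). AIP1, whose product helps cofilin to take filaments apart, rose by 0.42 ± 0.19 with values of 0.20, 0.53 and 0.53 (1.34-fold, adjusted p = 0.0108), and SAC6, which encodes fimbrin, the main bundling protein of patches, rose by 0.39 ± 0.10. PFY1, which encodes profilin, and TWF1, which encodes the monomer-binding protein twinfilin, had mean log2 ratios of 0.34 and 0.27 and rose. All of these genes were above 0 on every array. The calls for AIP1 and SAC6 were lost without replicate 2 (adjusted p = 0.125 and 0.162), and those for PFY1 and TWF1 without replicate 2 (both 0.207) and without replicate 3 (0.160 and 0.236). No gene of this group fell.

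Besides CAP2, 4 genes of the group did not pass. CRN1 (coronin) and SRV2 (the cyclase-associated protein, which recycles actin monomers) lay close to no change, with means of 0.01 and -0.05. ABP1, which encodes an actin-binding activator of Arp2/3 and a standard marker of patches, had 0.58 on replicate 1 but -0.10 and -0.24 on replicates 2 and 3. COF1, which encodes cofilin, the severing protein essential for patch turnover, had -0.50 and -0.56 on replicates 1 and 2 and 0.48 on replicate 3. The arrays therefore disagreed in sign for both genes, and their means of 0.08 and -0.19 describe none of the cultures. Without replicate 3 COF1 passed the test at -0.53 (adjusted p = 0.00118).

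None of the 7 genes of the Arp2/3 complex, the nucleator of branched filaments, passed the test, with adjusted p from 0.0749 to 0.537, where 54.8% of all named genes passed. Without replicate 1, 2 of the 7 rose. ARP2 and ARP3, which encode the actin-related subunits, had mean log2 ratios of -0.19 and -0.14. Among the other subunits, ARC18 had -0.19, ARC40 0.14, ARC19 0.14, ARC35 0.15 and ARC15 0.29. The 95% intervals of the 7 means reached no lower than -0.43 and no higher than 0.57 on the log2 scale. ARC19 had -0.50 on replicate 1 but 0.47 and 0.46 on replicates 2 and 3, and ARC15 had -0.01, 0.34 and 0.55. Without replicate 1 both passed, at 0.47 for ARC19 (adjusted p = 0.00235) and 0.45 for ARC15 (adjusted p = 0.00486), while the other 5 did not pass without any replicate.

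Of the 6 genes for activators of Arp2/3 and patch myosins, 1 rose (16.7%, against 26.9% of all named genes) and none fell (against 27.9%). MYO3, a type I myosin gene whose product both moves on actin and stimulates Arp2/3, had log2 ratios of 0.98, 0.64 and 0.49 and rose 1.63-fold (0.70 ± 0.25, adjusted p = 0.00141). MYO5, the related type I myosin gene, had 0.47, 0.18 and 0.02 and did not pass (adjusted p = 0.123). LAS17, the gene of the yeast WASP homologue, had 0.65, 0.13 and -0.14, and VRP1, which encodes its partner verprolin, had 0.68, -0.22 and -0.40. BBC1 and BZZ1, which encode regulators of Las17 with SH3 domains, had means of 0.12 and 0.17. In all 6 genes replicate 1 was the highest array, and the median of the group was 0.60 on replicate 1, 0.04 on replicate 2 and 0.02 on replicate 3. LAS17 passed as an increase without replicate 3 (0.39, adjusted p = 0.0202), and VRP1 passed as a decrease without replicate 1 (-0.31, adjusted p = 0.0184), so for these 2 genes the choice of arrays settles the call.

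Of the 10 genes of the endocytic coat, 5 rose (50%, against 26.9% of all named genes) and 2 fell (20.0%, against 27.9%). YAP1802 and YAP1801 encode the yeast AP180 proteins, early adaptors that bind clathrin and the lipids of the plasma membrane. YAP1802 had log2 ratios of 1.53, 1.46 and 1.51, with the smallest SD of the 50 genes at 0.04, and rose 2.83-fold (adjusted p = 5.65e-06), above 96.4% of all named genes. YAP1801 had 1.05, 0.93 and 1.06 and rose 2.02-fold (1.01 ± 0.07, adjusted p = 6.23e-05). The lowest value of YAP1802 lay above the highest of YAP1801. The call for YAP1802 held in all 12 alternatives, and that for YAP1801 in the 11 that kept the gene.

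The epsin genes ENT1 and ENT2, whose products bind membrane lipids, ubiquitin and clathrin, also rose. ENT1 had 1.31, 0.69 and 0.49 (1.77-fold, adjusted p = 0.0025), and ENT2 had 0.75, 0.52 and 0.39 (1.47-fold, adjusted p = 0.00266). In both genes replicate 1 was highest and replicate 3 lowest, and all 6 values were above 0. END3, which encodes a partner of Pan1 and Sla1 in the coat, rose by 0.40 ± 0.25 on the log2 scale (adjusted p = 0.0193), with 0.69 on replicate 1 and 0.26 on each of the others.

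Of the same coat, PAN1 and SCD5 fell. PAN1 encodes the scaffold that bridges coat proteins and activates Arp2/3, and had 0.02, -0.44 and -0.78, so replicate 1 showed no decrease. Its mean of -0.40 ± 0.40 lay at the edge of the threshold (adjusted p = 0.0494). The call ended in 10 of 12 alternatives, among them leaving out replicate 2 (adjusted p = 0.107) and replicate 3 (0.241). Without replicate 1 PAN1 passed at -0.61 (adjusted p = 0.00249). SCD5, which encodes a subunit that directs the phosphatase Glc7 to coat proteins, had -0.22, -0.34 and -0.24, a mean of -0.27 ± 0.07 (adjusted p = 0.0394), and lost its call without replicate 2 (adjusted p = 0.372) and replicate 3 (0.110). EDE1, which encodes an early scaffold of endocytic sites, SLA1, whose product links cargo to the coat, and SLA2, whose product couples the membrane to actin, had means of -0.04, 0.00 and 0.18 and did not pass. Within this coat list, YAP1801, YAP1802, ENT1 and ENT2, which encode adaptors that bind the membrane, had the highest means. The scaffold genes EDE1 and PAN1 had means of -0.04 and -0.40, and SLA1, whose product links cargo to the coat, had 0.00. Other genes did not follow this split: END3, for a partner of Pan1 and Sla1, rose (0.40). SLA2, whose product couples the membrane to actin, had 0.18 and did not pass. Of the AP-2 adaptor genes described below, APL3 and APL1 fell (-0.61 and -0.38), APS2 rose (0.58) and APM4 did not pass (0.17). Whether adaptors and scaffolds differed as classes was not tested, since this grouping was made after the values were seen.

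**Figure D2:**
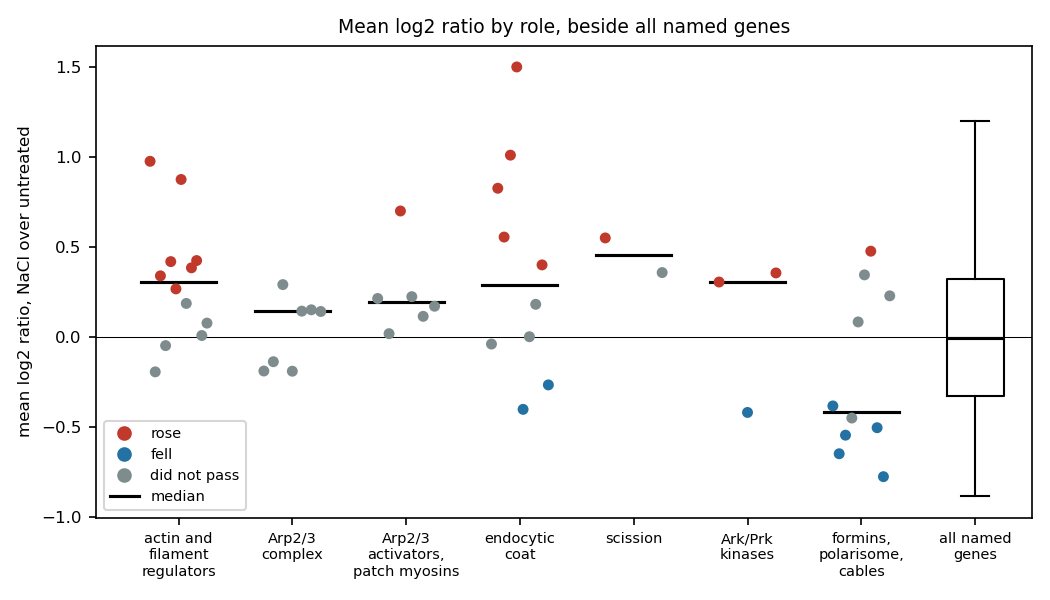
Mean log2 ratio of NaCl over untreated (vertical axis) for the genes of each role, with a bar at the median, beside a box for all 4069 named genes (median and quartiles, whiskers at the 5th and 95th percentiles). The coat spreads from -0.40 for PAN1 up to 2.83-fold for YAP1802, and the formin and cable group has the median of its gene means at -0.42.

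RVS161 and RVS167 encode the amphiphysin heterodimer that pinches off the endocytic vesicle. RVS161 had 0.62, 0.57 and 0.47 and rose 1.47-fold (0.55 ± 0.08, adjusted p = 0.00153). RVS167 had 0.89, 0.32 and -0.13, a range that includes all values of its partner, and did not pass at 0.36 ± 0.51 (adjusted p = 0.113). Without replicate 3 RVS167 passed at 0.60 (adjusted p = 0.000204).

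The kinases Ark1, Prk1 and Akl1 phosphorylate Pan1, Sla1 and other coat proteins and thereby take the coat apart. All 3 genes passed the test, where 54.8% of all named genes passed, and they did not share a direction. PRK1 had -0.43, -0.37 and -0.46 and fell 1.34-fold (-0.42 ± 0.04, adjusted p = 0.00544). ARK1, its close relative, had 0.10, 0.34 and 0.48 and rose 1.24-fold (0.31 ± 0.19, adjusted p = 0.0382). AKL1 had 0.43, 0.39 and 0.26 and rose 1.28-fold (0.36 ± 0.09, adjusted p = 0.0127). None of the 3 genes changed sign between arrays, but every call of this group was lost without replicate 2, with adjusted p of 0.0556 for PRK1, 0.240 for ARK1 and 0.152 for AKL1, and that of ARK1 also without replicate 3 (0.213). The means without replicate 2 stayed close to those of all arrays, at -0.44, 0.29 and 0.34 for PRK1, ARK1 and AKL1. Calls over all named genes were also fewer without replicate 2, with 19.1% that rose and 17.1% that fell.

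Of the 10 genes of formins, the polarisome and actin cables, 5 fell (50%, against 27.9% of all named genes) and 1 rose (10.0%, against 26.9%). The median of the group was -0.04, -0.50 and -0.41 on the 3 arrays. Of the formin genes, BNR1, whose product nucleates cables at the bud neck, had -0.45, -0.74 and -0.75 and fell 1.57-fold (-0.65 ± 0.17, adjusted p = 0.00111). BNI1, whose product nucleates cables from the bud tip, had -0.19, -0.53 and -0.43 and fell (-0.38 ± 0.18, adjusted p = 0.015). Leaving out replicate 2 ended this call (adjusted p = 0.211). BUD6 encodes a cofactor that brings actin monomers to the formin Bni1, and had -0.37, -0.60 and -0.66 with a 1.46-fold decrease (adjusted p = 0.0025). All values of these 3 genes were below 0.

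The type V myosin genes fell as well. MYO4, whose product carries messenger RNA such as that of ASH1 into the bud, had -0.81, -0.86 and -0.66 and fell 1.71-fold (-0.78 ± 0.11, adjusted p = 0.000294), lower than all but 7.1% of named genes. MYO2, the essential type V myosin gene for transport of vesicles and organelles, had -0.65, -0.47 and -0.38 and fell 1.42-fold (-0.50 ± 0.14, adjusted p = 0.0033). MLC1, which encodes a light chain of Myo2, had 0.52, 0.04 and 0.13, above 0 on every array, and did not pass at a mean of 0.23 (adjusted p = 0.128).

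The tropomyosin genes stood apart from the formins and motors. TPM2, the gene of the minor tropomyosin, had 0.93, 0.32 and 0.18 and rose by 0.48 ± 0.40 on the log2 scale (adjusted p = 0.0255). TPM1, the gene of the major form, had 0.96 on replicate 1 but 0.09 and -0.01 on replicates 2 and 3, and did not pass at 0.35 ± 0.54 (adjusted p = 0.138). It passed without replicate 2 (adjusted p = 0.0386) and without replicate 3 (0.00131), where replicate 1 weighs more. Of the polarisome genes, PEA2 had a mean of 0.08, and SPA2, whose product is the scaffold of the polarisome, had 0.11, -0.65 and -0.80 and missed the threshold (adjusted p = 0.0526). Without replicate 1 SPA2 passed at -0.73 (adjusted p = 0.000485), which made 6 decreases in the group, and it also passed with the arrays scaled to the same spread (adjusted p = 0.0499).

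Replicate 1 lay further from the others for these genes than for the array as a whole. The value on replicate 1 differed by more than 0.5 on the log2 scale from the mean of replicates 2 and 3 in 11 of the 50 genes (22%), against 12.8% of all named genes. It was the higher in 10 of the 11, namely TPM1, VRP1, SPA2, RVS167, ABP1, ENT1, TPM2, LAS17, PAN1 and BZZ1, and the lower in ARC19. Over all 50 genes, replicate 1 was higher than the mean of the others in 33 (66.0%), against 50.4% of all named genes. The spots of a gene agreed far better than this: the median SD between the 7 spots was 0.07, 0.08 and 0.08 on the 3 arrays for the 50 genes, with the highest at 0.40 for BNR1. What set replicate 1 apart was not tested.

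**Figure D3:**
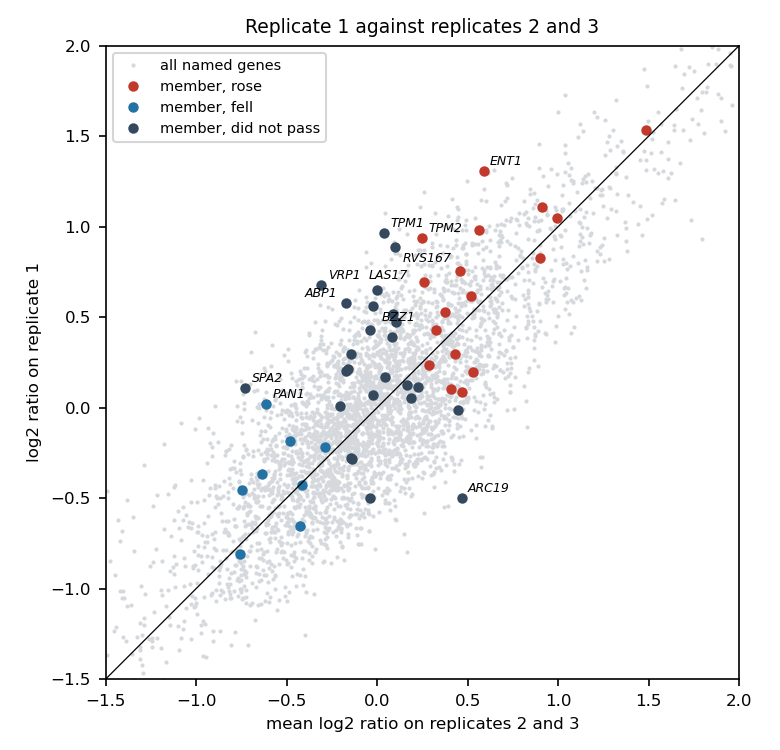
Log2 ratio on replicate 1 (vertical axis) against the mean of replicates 2 and 3 (horizontal axis) for the 50 genes, coloured by the call of limma, over all named genes in grey, with the line of equal values; stronger changes of other genes lie outside the axes. The 11 named genes lie more than 0.5 from the line, 10 of them above it.

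Several of these genes come in pairs of related copies or of partners in 1 complex, and both genes of a pair were measured on the same array. In 7 of 9 pairs the difference had the same sign on all 3 arrays. A constant sign was common on these arrays: of 4069 named genes, 1437 were above 0 and 1516 below 0 on every array. How often differences between unrelated genes keep a sign was not tested. An exact two-sided permutation test over 3 arrays, turning the sign of the difference, cannot give a p below 0.25, which is the value for each of these 7 (adjusted p = 0.321 over 9 pairs), so no pair could pass and the values are given as measured. The kinase genes had the widest gap, with ARK1 above PRK1 by 0.53, 0.71 and 0.93 (0.73 ± 0.20, SD, n = 3). CAP1 exceeded CAP2 by 0.72, 0.72 and 0.63 (0.69 ± 0.05), MYO3 exceeded MYO5 by 0.51, 0.45 and 0.47 (0.48 ± 0.03), and YAP1801 was below YAP1802, with differences of -0.48, -0.54 and -0.45 (-0.49 ± 0.04). MYO3 and MYO5 each varied between arrays with SDs of 0.25 and 0.23, while their difference varied by 0.03.

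The remaining related copies had smaller gaps. ENT1 exceeded ENT2 by 0.27 ± 0.25, mostly through replicate 1 (0.55, against 0.16 and 0.10). BNI1 lay above BNR1 by 0.27 ± 0.06 and MYO2 above MYO4 by 0.27 ± 0.12, in pairs where both genes fell. For TPM1 minus TPM2 the differences were 0.03, -0.23 and -0.20, and for RVS161 minus RVS167 they were -0.27, 0.25 and 0.59, so neither pair kept a sign (exact permutation p = 0.5 and 0.75). Probe sequences were not used here, and whether spots of one copy also bind RNA of the other was not tested.

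**Figure D4:**
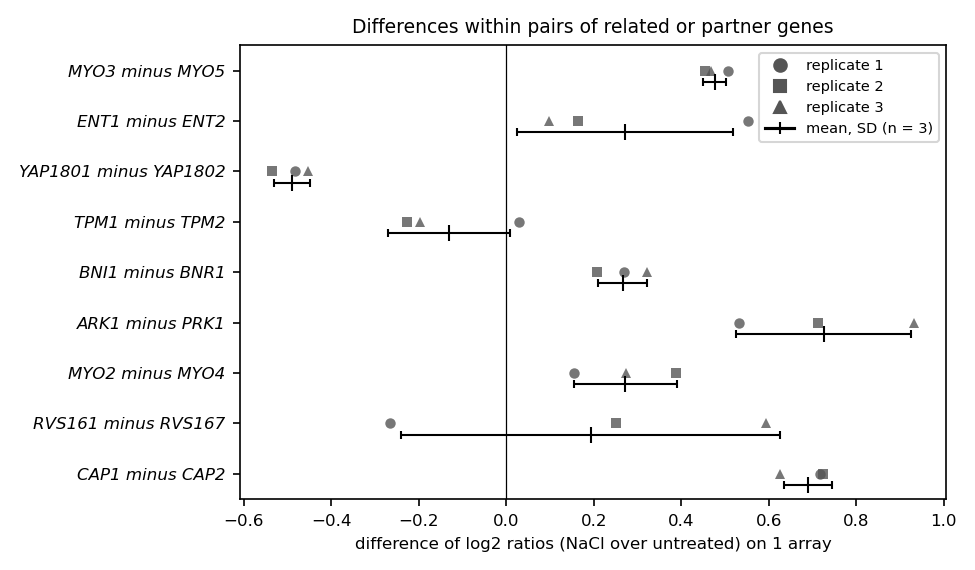
Difference of log2 ratios between the genes of 9 pairs (horizontal axis) on each array, with 1 symbol per replicate and the mean with SD (n = 3) below the symbols. ARK1 minus PRK1 is widest at a mean of 0.73, and RVS161 minus RVS167 and TPM1 minus TPM2 are the pairs that cross 0.

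A second list of 60 genes, drawn up by function from the same processes, had 47 genes with a name on the array. None of its 4 eisosome genes was among them, and of 17 genes for other patch and coat proteins 11 were. Of the 47 genes, 12 rose, 14 fell and 21 did not pass. These are 25.5% that rose and 29.8% that fell, close to the shares of all named genes. Without replicate 2 the counts were 11 and 8. Among them HOF1, which encodes an F-BAR protein of the cytokinetic ring that also regulates Bnr1, had 1.53, 1.23 and 1.05 and rose 2.41-fold (adjusted p = 5.94e-05). SYP1, which encodes an early F-BAR adaptor of endocytic sites, had 1.31, 0.62 and 0.67 (1.82-fold, adjusted p = 0.00144). ENT3, an epsin-related gene of Golgi and endosome traffic, rose 1.76-fold with values of 0.79, 0.83 and 0.82 (adjusted p = 0.000173).

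YSC84 and LSB3 encode related actin-bundling proteins of patches and differed in direction. YSC84 rose by 0.81 ± 0.12 on the log2 scale with 0.84, 0.68 and 0.90 (adjusted p = 0.000254). LSB3 fell 1.27-fold with -0.20, -0.36 and -0.47, and did not pass once replicate 2 (adjusted p = 0.164) or replicate 3 (0.111) was left out. Of clathrin, the light chain gene CLC1 rose 1.41-fold (adjusted p = 0.00768) and the heavy chain gene CHC1 did not pass at a log2 ratio of 0.19, though it did without replicate 1 (0.24, adjusted p = 0.033). Of the AP-2 adaptor complex, the large subunit genes APL3 and APL1 fell (-0.61 and -0.38) and the small subunit gene APS2 rose (0.58), while the medium subunit gene APM4 had 0.17. APL3 was nearly the same on every array, with -0.62, -0.58 and -0.62 (1.52-fold lower, adjusted p = 0.000798). APL1 lost its call without replicate 2 (adjusted p = 0.0732), and APM4 passed without replicate 1 (0.31, adjusted p = 0.0145). The RNAs of the AP-2 genes thus did not share a direction on these arrays, and differences between them were not tested.

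The list also held genes of cell polarity, of cytokinesis and cable motor partners, of phosphoinositide enzymes and of the TORC2 pathway. KEL1, whose product regulates formin activity and cell fusion, had -0.57, -1.10 and -1.10 and fell 1.90-fold (adjusted p = 0.000536). STE20, a p21-activated kinase gene that acts downstream of Cdc42, had -0.31, -0.89 and -0.99 and fell 1.66-fold (adjusted p = 0.00304), and MYO1, the type II myosin gene of the cytokinetic ring, fell 1.46-fold with -0.27, -0.61 and -0.76 (adjusted p = 0.00498). Of the 14 genes of polarity GTPases and their regulators, 5 fell (35.7%, against 27.9% of all named genes), 1 rose (7.14%, against 26.9%) and 8 did not pass. CDC42 itself, the central polarity GTPase gene, had -0.50, -0.19 and 0.02 and did not pass (adjusted p = 0.142), though it did without replicate 3 (-0.34, adjusted p = 0.0448), and RGA2, which encodes a GTPase-activating protein for Cdc42, rose 1.66-fold with 0.84, 0.70 and 0.64. MSS4, the phosphatidylinositol-4-phosphate 5-kinase gene whose lipid product recruits endocytic adaptors, fell 1.46-fold with -0.54, -0.55 and -0.54. YPK1 and YPK2, kinase genes of the TORC2 pathway, rose 1.46-fold and 1.58-fold.

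**Figure D5:**
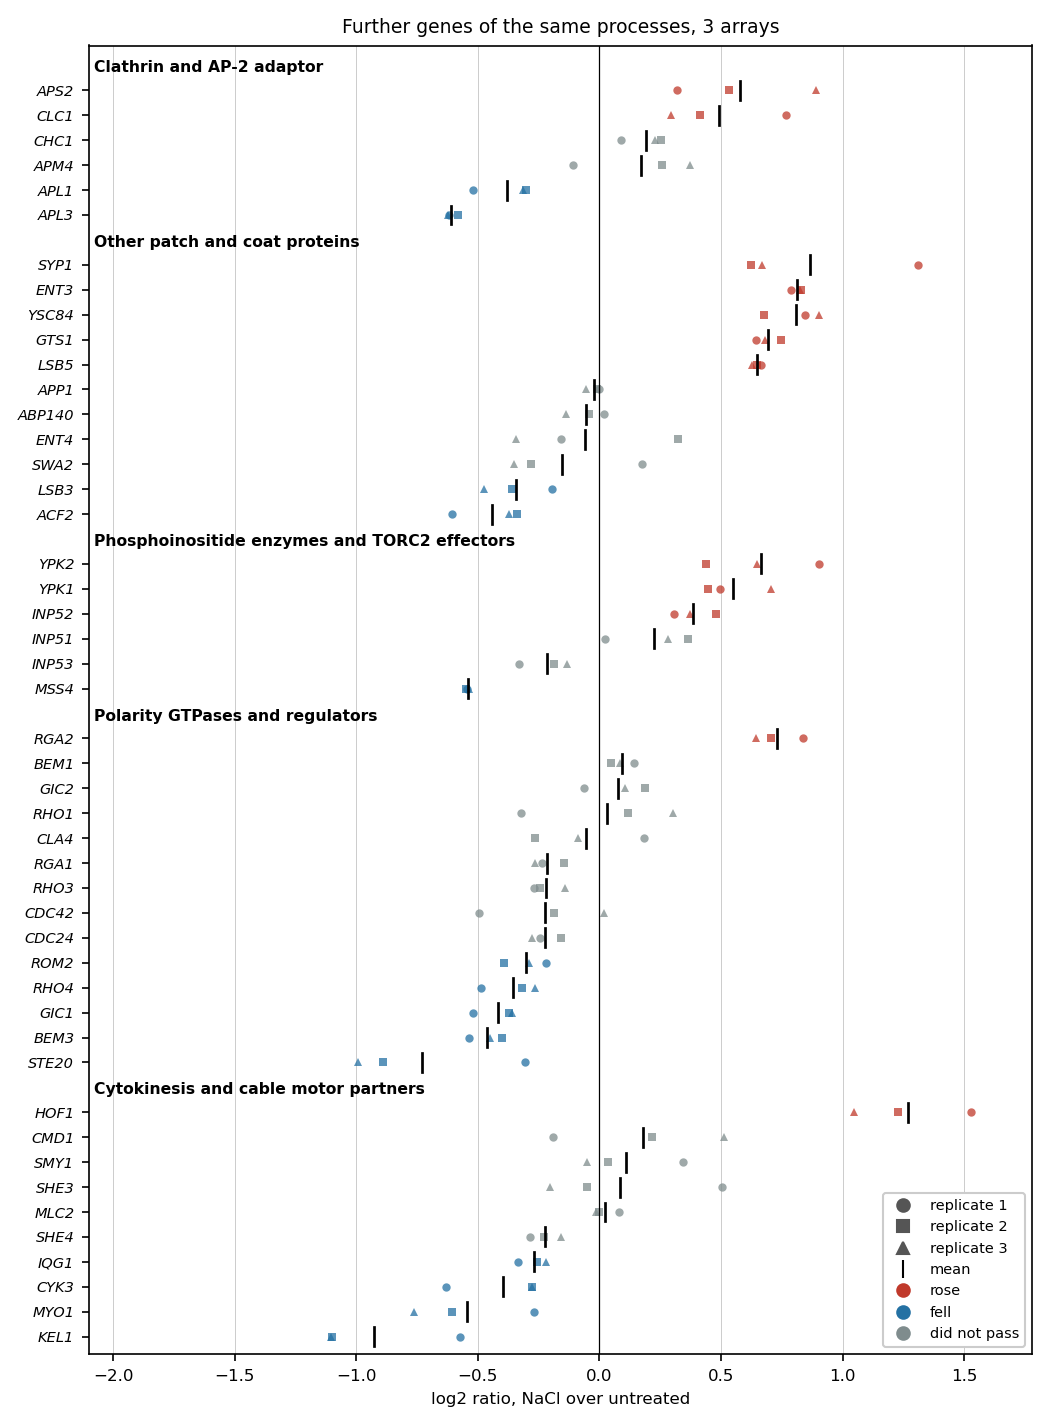
Log2 ratio of NaCl over untreated (horizontal axis) for the 47 further genes, with 1 symbol per replicate, a bar at the mean and colour for the call of limma. HOF1 is highest at 1.27 and KEL1 lowest at -0.93.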

How the data were processed

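The authors deposited 1 normalized ratio per spot of a 2-colour array for each of 3 cultures, read here as log2 since the base is not stated. For their own processing, limma is the tool named in the submitters' notes. How background was corrected and ratios were normalized is not stated in the sources used here. No filter on dim spots was applied, because spot intensities were not used.

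Of 45220 spots, 28532 carried a symbol in the platform annotation, updated through the R64 gene table to 4069 genes, and the mean over a gene's spots was its value on an array. The mean ratio of each gene over 3 arrays was estimated and moderated by empirical Bayes in limma 3.58.1 (R 4.3.3), and two-sided p-values were adjusted over all 4069 genes by Benjamini-Hochberg at 0.05. The fit was tested on simulated data with the spread of each gene. It recovered 12 of 50 genes changed by a log2 ratio of 0.4 and 35 of 50 changed by 0.8. The simulation held 136 calls, against 2228 on the arrays, so its shares do not carry over directly. A gene that did not pass can still have changed by a small amount. Intervals are 95%. The 3 arrays limit the precision. Figures were made with Python 3.11.15 and matplotlib 3.10.9. Promoter motifs, a planned description, were not analysed here for want of sequences.

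The 50 genes, their roles, the pairs and the further list were chosen with earlier results of these data known. All 50 genes are named; full statistics are given for ACT1, the most changed genes of each role that passed (up to 4), the one that most opposed its role, and genes of pairs. Of the further list, the 4 highest and 4 lowest past the threshold follow this rule, and other genes of it were named after their values were seen. The 12 alternatives were 3 scalings of the arrays, the median of spots, robust empirical Bayes, a stricter threshold (0.01), testing for more than a fold of 1.2, no empirical Bayes, leaving out genes with the widest spots, and leaving out each replicate.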

Additional observations from a re-analysis of the deposited data

How the results depend on the processing

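No call among the 50 genes changed direction past the threshold in any of the 12 alternatives, and 15 of the 25 calls (11 that rose and 4 that fell) were also made without each replicate in turn. CAP1, YAP1802, RVS161 and MYO4 were called in all 12, and YAP1801 in the 11 that tested it, since the filter on wide spots removes it. The counts that rose and fell among the 50 genes were 10 and 5 at a threshold of 0.01, 8 and 3 against a fold of 1.2, and 4 and 2 without empirical Bayes. Leaving out the 25% of genes with the widest spots, which keeps 45 of the 50, 15 rose and 5 fell. Of the genes called on all spots, ACT1, YAP1801, BNR1 and BUD6 were removed by this filter and not tested. PAN1 was tested and lost its call (adjusted p = 0.0556). Without 1 replicate, 12 to 20 rose and 4 to 10 fell. Over all named genes, 620 rose and 560 fell against a fold of 1.2, 400 and 361 without empirical Bayes, and 695 to 1340 fell without 1 replicate. Of the further genes, 5 rose without empirical Bayes, and 8, 4 and 3 fell at 0.01, against a fold of 1.2 and without empirical Bayes, and 8 to 15 without 1 replicate. RVS161 minus RVS167 ranged between -0.00812 and 0.42 without 1 replicate and was below 0 without replicate 3, and the other 8 pairs kept their sign in every setting. The median of the 50 genes stayed between 0.09 and 0.16. The causes were not tested. Among 32 genes followed singly, 48 of 379 combinations with an alternative lost a call and 4 gained one. No separate paired analysis was run, because both RNAs of a culture lie on 1 array and the fit of their ratio is already a paired comparison.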

Other observations

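In the R64 gene order, which was used for the order only, the genes on either side of the 17 actin and endocytosis genes that rose had 22 values on the array, of which 6 rose and 2 fell. Beside the 8 genes that fell there were 11 such values, of which 2 rose and 5 fell. Over all named genes, 29.5% of the neighbours of genes that rose also rose, and 33.3% of the neighbours of genes that fell also fell. The counts beside the 50 genes are too small to set against these shares. Single neighbours could differ widely from the gene they lie beside: PEA2, with a mean log2 ratio of 0.08, lies next to the cell wall protein gene SPI1 at 3.45, and AIP1, which rose by 0.42, lies next to UTP15 of ribosome biogenesis at -1.84. The type V myosin genes MYO4 and MYO2, which fell, lie next to SNC1 and SNC2, a related pair of vesicle SNARE genes, which had -0.20 and -0.26 and did not pass the test.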
